A study of Mus musculus with 6 samples.

Results

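The 9 transcripts examined here encode the core of the insulin signalling chain: the insulin receptor (Insr), its adaptors (Irs1 and Irs2), a regulatory and a catalytic subunit of phosphoinositide 3-kinase (PI3K; Pik3r1 and Pik3ca), the AKT kinases (Akt1 and Akt2) and the transcription factors that AKT holds in check (Foxo1 and Foxo3). They were taken by gene symbol from the deposited gene table, which held all 9 among its 16140 genes. All 9 had enough counts to be tested, as had 12173 genes in all. The libraries were poly(A)-selected bulk RNA-seq of mouse liver. The 3 knockout livers carried floxed alleles of Selenoo (the SelO gene, named Selo in the genotype labels) together with Alb-Cre, a recombinase driven by the albumin promoter and so active in hepatocytes. The 3 control livers carried the same floxed alleles without Cre, and the series title places all mice on a normal diet. The sources used here give neither age nor sex. Since Cre was present only in the knockouts, effects of Cre and of Selenoo loss cannot be told apart. Nothing in the labels says that each library came from its own mouse, so p-values reflect only how far these samples spread, which may be technical.

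Insulin bound to its receptor leads to tyrosine phosphorylation of the IRS adaptors, which recruit PI3K, and the lipid that PI3K makes brings AKT to the membrane to be activated. In hepatocytes, active AKT phosphorylates the FOXO factors and keeps them out of the nucleus, which lowers the transcription of genes of glucose output and fasting. Much of this control acts on protein phosphorylation and location, which RNA-seq does not measure. Transcript levels do feed back on the chain: Irs2 is itself known as a gene that FOXO factors activate and insulin represses in liver.

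Selenoo had 6.29, 9.31 and 7.67 CPM (counts scaled to library size with TMM factors) in the knockout libraries, against 94.8, 84.2 and 96.0 CPM in the controls, so the targeted transcript was low in every library labelled knockout. The libraries held 15550287 to 18680196 counts. Hepatocyte markers were abundant in every library: Alb lay between 78379.9 and 92246.3 TPM (a measure per transcript length) in the knockouts and between 72941.8 and 99612.4 TPM in the controls. Libraries differed in how abundance depended on transcript length. Spearman's rho across genes between length and a library's deviation from the mean was 0.29, 0.086 and 0.091 in the knockouts, against -0.32, -0.24 and 0.30 in the controls. This bears on the genes examined here because 7 of the 9 have effective lengths above 5 kb (5.30 to 9.14 kb), where the median tested gene has 2.48 kb; the exceptions are Akt1 (2.44 kb) and Akt2 (2.94 kb). The log2 fold change of each of the 9 genes is therefore also given with the length trend of every library removed.

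None of the 9 genes had an adjusted p under 0.05 (edgeR, quasi-likelihood test), while 1.49% of all tested genes did. Irs2 came nearest, at 1.67-fold the control level with an adjusted p of 0.128. At an unadjusted p under 0.05 there were 3 of the 9 (Irs2, Foxo1 and Akt1, with positive fold changes), where 18.5% of all tested genes reached it. Of the 9, 8 had a positive fold change, and over all tested genes this share was 47.8%. The median log2 fold change of the 9 was 0.33, beside -0.02 over all tested genes. With the length trend removed, 7 of the 9 were positive and their median was 0.19, beside -0.01 over all tested genes; 0 of the 9 were then called, and 2.28% of all tested genes. In 3 of the 9 (Pik3ca, Akt1 and Foxo1) every knockout library lay above every control library, as in 13.3% of all tested genes. The DESeq2 Wald test called 1 of the 9, Irs2 (adjusted p = 0.0448), and 5.26% of the genes to which it gave an adjusted p. In the authors' deposited table Irs2 had a q of 0.0595, and none of the 9 had a q under 0.05, which 3.47% of the genes in that table had.

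**Figure D1:**
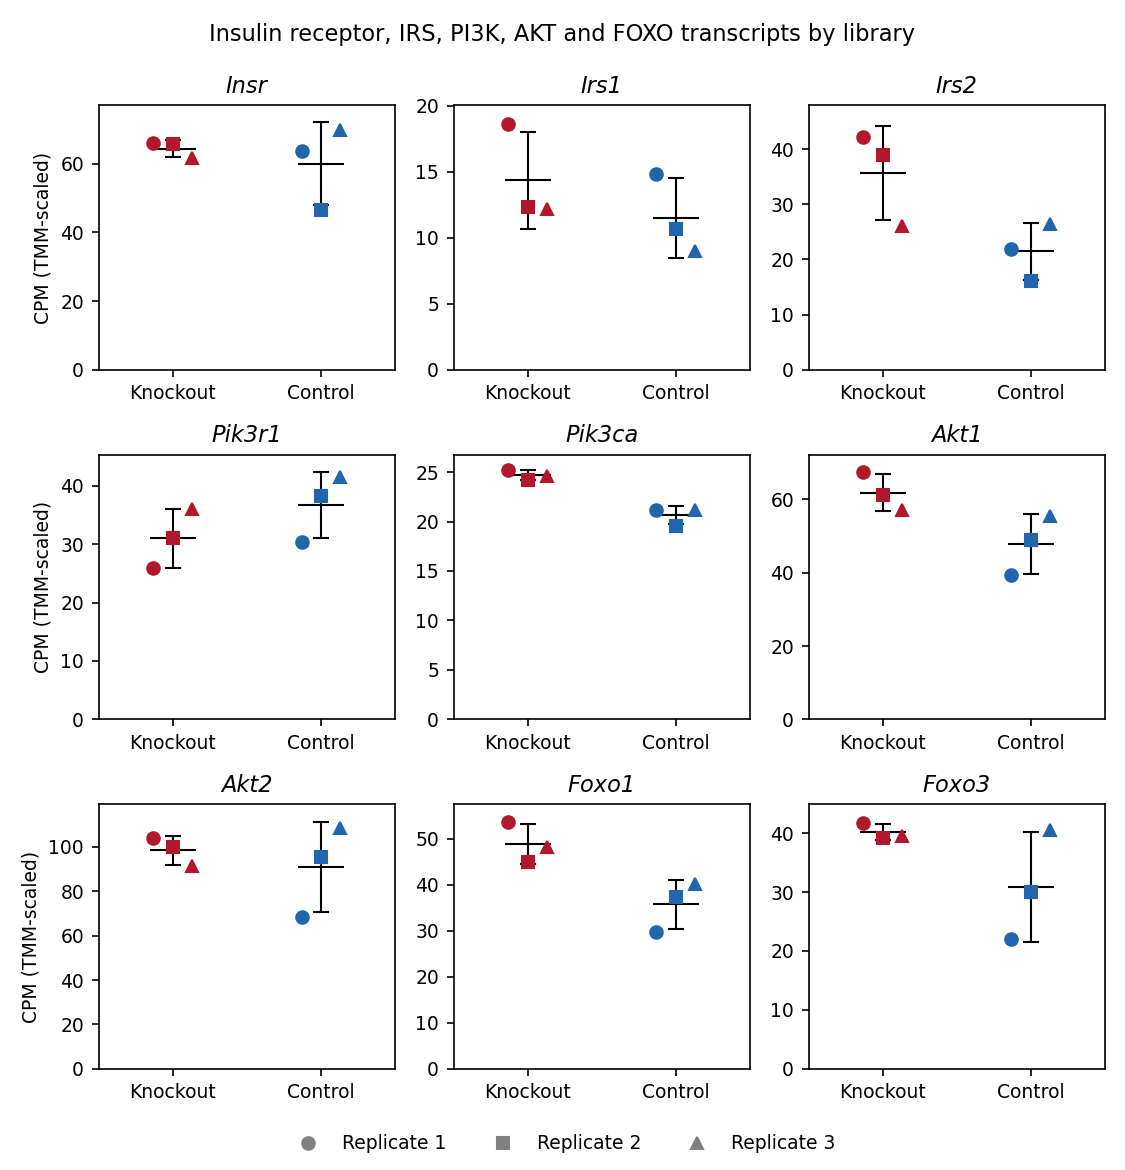
CPM (vertical axis, scaled by TMM factors, from 0) of the 9 transcripts in each knockout and control library; symbols mark the replicate number, bars the mean and SD of 3 libraries. In Pik3ca, Akt1 and Foxo1 all knockout points lie above all control points, and in Irs2 knockout replicate 3 (26.1 CPM) lies just under control replicate 3 (26.3 CPM).

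Insr, the receptor tyrosine kinase that binds insulin, lies on chromosome 8 (3150922 to 3279649, GRCm38). It had 66.0, 65.7 and 61.5 CPM in the knockout libraries, against 63.7, 46.5 and 69.8 CPM in the controls. The knockouts lay inside the range of the controls, which control replicate 2 set at its low end. The log2 fold change was 0.10 ± 0.16 (SE, 95% interval -0.26 to 0.46; adjusted p = 0.76, edgeR). With the length trend removed it was -0.0033, and without control replicate 2 it was -0.052. The deposited table lists Insr on the plus strand whereas GENCODE places it on the minus strand; the strands differed for 11.6% of 15631 genes matched by symbol, and the sources used here do not say whether counting used strand. The related receptor gene for insulin-like growth factor 1, Igf1r, had 0.24, 0.12 and 0.16 TPM in the knockouts against 0.21, 0.21 and 0.17 TPM in the controls. Insr stood at 9.50, 8.68 and 8.08 TPM in the knockouts and at 7.28, 6.61 and 10.39 TPM in the controls. At least 31 times as many Insr as Igf1r transcripts were thus counted per length in each library. Their log2 ratio differed by 0.37 between the groups (two-sided exact permutation p = 0.4, adjusted p = 0.5 over 5 ratios), with Igf1r given to only 2 decimals.

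Irs2 is the adaptor whose transcript is known to rise in fasted liver. It lies on chromosome 8 (10984681 to 11008929, minus strand). It had 785, 682 and 459 counts in the knockout libraries, against 327, 311 and 508 in the controls. In CPM these were 42.2, 39.0 and 26.1 in the knockouts, against 21.9, 16.1 and 26.3 in the controls. Knockout replicates 1 and 2 lay above every control, while knockout replicate 3 lay level with control replicate 3. Mean levels were 35.7 ± 8.52 CPM in knockout and 21.4 ± 5.16 CPM in control livers (SD, n = 3 each). The log2 fold change was 0.74 ± 0.22 (SE, 95% interval 0.24 to 1.24; unadjusted p = 0.00868, adjusted p = 0.128, edgeR). It was 0.64 with the length trend removed (adjusted p = 0.117). Leaving out each library in turn, it ran from 0.56 without control replicate 2 to 0.92 without knockout replicate 3. In GENCODE, exon bases of Irs2 overlap the antisense transcript 9530052E02Rik, and reads of the 2 cannot be told apart without strand.

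Irs1, the other IRS adaptor of hepatocytes, lies on chromosome 1 (82233105 to 82291439, minus strand). It was the least abundant of the 9 per length. It had 18.6, 12.3 and 12.2 CPM in the knockout libraries, against 14.8, 10.7 and 8.97 CPM in the controls. The groups overlapped, since control replicate 1 lay above knockout replicates 2 and 3. Its log2 fold change was 0.33 ± 0.23 (SE, 95% interval -0.19 to 0.84; adjusted p = 0.467, edgeR) and 0.19 with the length trend removed. Leaving out knockout replicate 1 gave 0.10, leaving out control replicate 3 gave 0.18 and leaving out control replicate 1 gave 0.55. In GENCODE an exon of Irs1 overlaps Gm9747 on the other strand. Irs3, a further adaptor gene of mice, was at 0.23 TPM or lower in every library.

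The promoters of Irs1 and Irs2 are shown because both hold the letters CAAAACA, the core of the insulin response sequence known from the Igfbp1 promoter, where FOXO factors bind. Those of Igfbp1, G6pc and Ccng2, genes known as FOXO targets and described further on, are shown for comparison. The 250 bases before the start of each gene were taken from RefSeq (GRCm38.p6) and are printed 5' to 3' on the strand of the gene, with each match to CAAAACA or its reverse complement TGTTTTG in capitals. No other motif was searched, and the search covered both strands.
Irs2 (chr8:11008930-11009179, minus strand): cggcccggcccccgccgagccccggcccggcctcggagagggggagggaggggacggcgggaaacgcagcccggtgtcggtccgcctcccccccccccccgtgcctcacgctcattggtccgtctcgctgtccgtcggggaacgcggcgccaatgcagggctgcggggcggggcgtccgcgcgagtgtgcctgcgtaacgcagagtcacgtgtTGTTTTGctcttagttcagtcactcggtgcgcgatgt
Irs1 (chr1:82291440-82291689, minus strand): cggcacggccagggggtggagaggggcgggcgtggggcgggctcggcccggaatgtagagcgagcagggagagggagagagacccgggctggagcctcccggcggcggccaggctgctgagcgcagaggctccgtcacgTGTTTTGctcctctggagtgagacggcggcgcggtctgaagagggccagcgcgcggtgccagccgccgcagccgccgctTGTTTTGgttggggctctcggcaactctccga
Igfbp1 (chr11:7197537-7197786, plus strand): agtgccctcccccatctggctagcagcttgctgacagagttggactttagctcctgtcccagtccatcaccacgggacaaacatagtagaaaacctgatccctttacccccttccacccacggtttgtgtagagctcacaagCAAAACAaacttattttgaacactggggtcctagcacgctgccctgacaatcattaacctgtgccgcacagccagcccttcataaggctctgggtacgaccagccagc
G6pc (chr11:101367466-101367715, plus strand): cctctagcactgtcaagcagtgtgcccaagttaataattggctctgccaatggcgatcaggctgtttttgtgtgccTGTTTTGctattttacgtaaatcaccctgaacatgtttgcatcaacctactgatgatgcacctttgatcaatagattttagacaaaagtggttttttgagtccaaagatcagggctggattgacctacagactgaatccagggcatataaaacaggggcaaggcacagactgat
Ccng2 (chr5:93267323-93267572, plus strand): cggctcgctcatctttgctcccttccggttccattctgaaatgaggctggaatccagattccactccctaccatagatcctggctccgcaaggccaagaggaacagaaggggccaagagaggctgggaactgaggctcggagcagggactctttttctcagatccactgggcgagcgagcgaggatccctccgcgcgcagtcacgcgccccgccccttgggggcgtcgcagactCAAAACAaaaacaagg
Irs2 had 1 match, 37 to 31 bases before its start, and Irs1 had 2, at 111 to 105 and 32 to 26 bases before its start. The match in Igfbp1 lay 108 to 102 bases before the start, that in G6pc 174 to 168 and that in Ccng2 16 to 10. The bases after the start were found in the transcript for Igfbp1, G6pc and Ccng2. They were not found, on either strand, for Irs1 and Irs2, so the distances given for Irs1 and Irs2 rest on the listed start alone. Over all 32851 promoters in the table, 5.56% held the letters in the same window. Of the 9 genes, 8 had promoters in the table, and the promoters of Pik3r1, Pik3ca, Akt1, Akt2, Foxo1 and Foxo3 held no match in this window. Nor did those of Pck1, Ppargc1a, Pdk4 and Txnip, the other 4 FOXO targets called higher. Promoters of the listed FOXO targets that were not called are not given here. Matches therefore cannot be compared between called and uncalled targets. A match is a description of the letters and not of a bound site.

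Per length, Irs2 exceeded Irs1 in every library. The ratio of their TPM was 3.09, 4.31 and 2.91 in the knockouts, against 2.01, 2.04 and 4.01 in the controls. Control replicate 3 had a ratio within the range of the knockouts. The difference of the mean log2 ratios was 0.41, with a two-sided exact permutation p of 0.3 (adjusted p = 0.5 over 5 ratios). With 3 libraries in each group the smallest p this test can give is 0.1. The summed TPM of both adaptors was 11.2, 8.87 and 6.42 in the knockouts, against 5.24, 4.75 and 6.86 in the controls.

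Pik3r1 encodes the p85-alpha regulatory subunit, which binds the IRS proteins and holds the catalytic subunit, and lies on chromosome 13 (101680761 to 101768217, minus strand). It was alone among the 9 in having a negative fold change. It had 25.9, 31.1 and 36.0 CPM in the knockout libraries, against 30.5, 38.2 and 41.4 CPM in the controls. The groups overlapped through control replicate 1. On the log2 scale the fold change was -0.25 ± 0.17 (SE, 95% interval -0.62 to 0.13; adjusted p = 0.448, edgeR) and -0.34 with the length trend removed. Fits gave -0.13 without knockout replicate 1 and -0.15 without control replicate 3.

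Pik3ca, the p110-alpha catalytic subunit on chromosome 3 (32397059 to 32468494, plus strand), varied least among the replicates. It had 25.2, 24.2 and 24.6 CPM in the knockouts, against 21.1, 19.6 and 21.2 CPM in the controls. The groups did not overlap, which was also true, in either direction, of 25.2% of all tested genes. Knockout over control gave a log2 fold change of 0.26 ± 0.12 (SE, 95% interval -0.0028 to 0.52; adjusted p = 0.275, edgeR) and 0.15 with the length trend removed.

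The ratio of Pik3r1 to Pik3ca, taken within each library in TPM, separated the groups. It was 1.07, 1.39 and 1.56 in the knockouts, against 1.63, 2.13 and 1.99 in the controls. Every knockout library had a lower ratio than every control library, by a narrow gap between knockout replicate 3 and control replicate 1. The means were 1.34 ± 0.253 in knockout and 1.92 ± 0.256 in control livers (SD, n = 3 each). The difference of the mean log2 ratios was -0.53, with a two-sided exact permutation p of 0.1, the smallest that 3 against 3 libraries allow (adjusted p = 0.25 over 5 ratios). These transcripts have similar effective lengths (6.37 and 6.80 kb). From ratios of counts the difference was -0.50 and the exact permutation p was 0.2. On counts the groups overlapped, since the ratio of knockout replicate 3 lay just above that of control replicate 1.

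**Figure D2:**
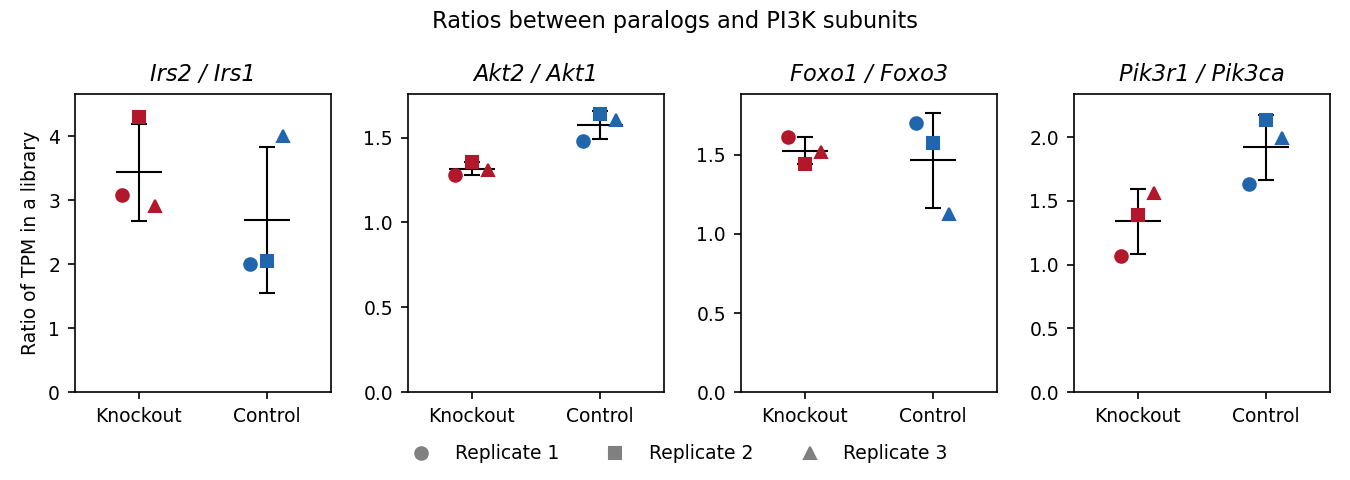
Ratio of TPM (vertical axis, from 0) between paralogs or PI3K subunits in each library, with symbols for the replicate number and bars for the mean and SD of 3 libraries. The knockout and control points do not overlap for Akt2 over Akt1 (1.28 to 1.36 in knockouts and 1.48 to 1.64 in controls) or Pik3r1 over Pik3ca, and overlap for the other ratios.

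Akt2, the AKT isoform most closely tied to the metabolic action of insulin in liver, was the most abundant of the 9 and lies on chromosome 7 (27591552 to 27640826, plus strand). It had 104, 99.9 and 91.3 CPM in the knockout libraries, against 68.6, 95.5 and 109 CPM in the controls. The groups overlapped, and control replicate 1 lay below the rest. The log2 fold change was 0.11 ± 0.18 (SE, 95% interval -0.28 to 0.51; adjusted p = 0.757, edgeR), 0.09 with the length trend removed and -0.053 without control replicate 1. Akt1, an isoform known more for growth and survival, lies on chromosome 12 (112653821 to 112674884, minus strand). It had 67.3, 61.1 and 57.1 CPM in the knockouts, against 39.3, 48.8 and 55.4 CPM in the controls. Every knockout library lay above every control library. Akt1 had a log2 fold change of 0.37 ± 0.15 (SE, 95% interval 0.027 to 0.71; unadjusted p = 0.0374, adjusted p = 0.236, edgeR). It was 0.37 with the length trend removed and ran from 0.25 without control replicate 1 to 0.49 without control replicate 3.

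The balance of Akt2 and Akt1 varied little within a group. Akt2 over Akt1 in TPM was 1.28, 1.36 and 1.31 in the knockouts, against 1.48, 1.64 and 1.60 in the controls. Every knockout ratio lay below every control ratio, although control replicate 1 had low levels of both transcripts. Put as a share, Akt1 made up 43.2% ± 0.72 of the summed TPM of Akt1 and Akt2 in knockout livers and 38.9% ± 1.29 in control livers (SD, n = 3 each). The difference of the mean log2 ratios was -0.26, and it stayed between -0.30 and -0.23 when each library was left out. The two-sided exact permutation p was 0.1, again the smallest possible (adjusted p = 0.25 over 5 ratios).

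Foxo1, the main FOXO factor of hepatic glucose output, lies on chromosome 3 (52268337 to 52353221, plus strand). It had 53.6, 44.9 and 48.2 CPM in the knockout libraries, against 29.8, 37.4 and 40.1 CPM in the controls. All knockouts lay above all controls. Mean levels were 48.9 ± 4.37 CPM in knockout and 35.8 ± 5.34 CPM in control livers (SD, n = 3 each). The log2 fold change was 0.45 ± 0.15 (SE, 95% interval 0.12 to 0.78; unadjusted p = 0.0128, adjusted p = 0.154, edgeR). It was 0.36 with the length trend removed (adjusted p = 0.138). In GENCODE, exon bases of Foxo1 overlap the antisense gene Gm20402, so part of its reads could belong to that gene if strand was not used.

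Foxo3, a factor that shares targets with Foxo1 and is known for genes of autophagy and stress resistance, lies on chromosome 10 (42180207 to 42276839, minus strand). It had 41.7, 39.2 and 39.5 CPM in the knockouts, against 22.1, 29.97 and 40.6 CPM in the controls. The knockouts lay close together, and control replicate 3 lay among them. Foxo3 had a log2 fold change of 0.38 ± 0.20 (SE, 95% interval -0.069 to 0.82; adjusted p = 0.343, edgeR). Omitting control replicate 3 gave 0.62, omitting control replicate 1 gave 0.19, and it was 0.29 with the length trend removed. Foxo1 over Foxo3 in TPM was 1.62, 1.44 and 1.52 in the knockouts, against 1.70, 1.57 and 1.13 in the controls. These ratios overlapped (difference of mean log2 ratios of 0.078, two-sided exact permutation p = 0.9, adjusted p = 0.9 over 5 ratios), and without control replicate 3 the difference was -0.10.

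**Figure D3:**
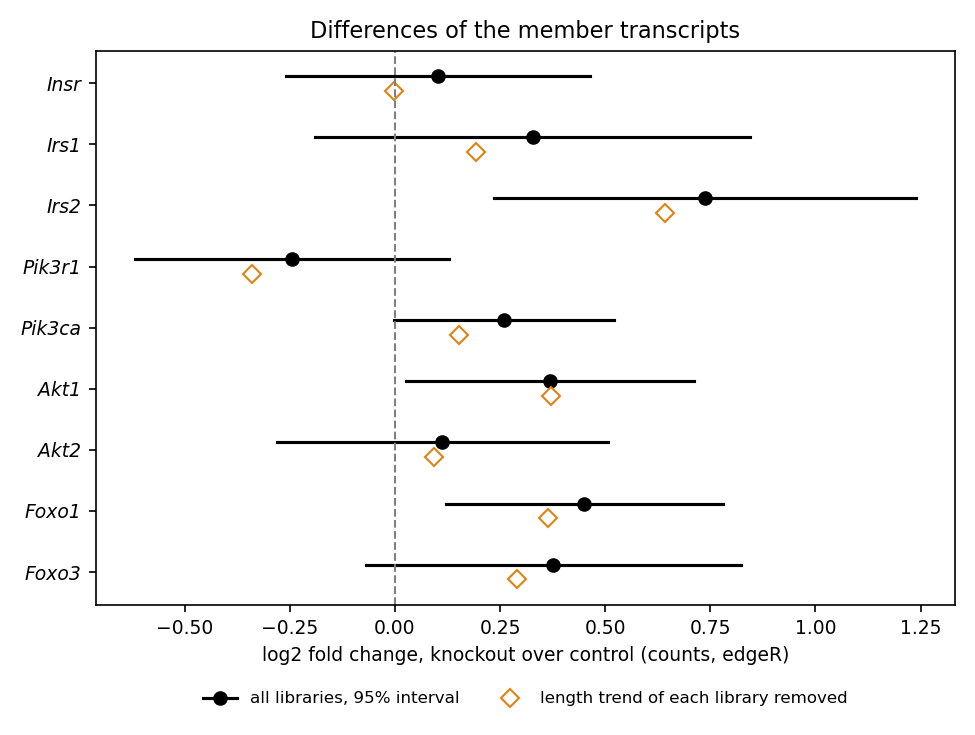
Log2 fold change of each gene, knockout over control (horizontal axis), from edgeR on all libraries with its 95% interval (black) and with the length trend of each library removed (orange diamonds). The intervals of Irs2, Akt1 and Foxo1 lie above 0 before adjustment for the number of genes tested, and the diamond of Insr lies at 0.

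Per length, the order over all 6 libraries was Akt2 (mean of 40.3 TPM), Akt1 (28.1 TPM), Foxo1 (9.97 TPM), Insr (8.42 TPM), Foxo3 (6.82 TPM), Pik3r1 (6.61 TPM), Irs2 (5.44 TPM), Pik3ca (4.12 TPM) and Irs1 (1.79 TPM), where the median tested gene had 6.02 TPM. Akt2 over Akt1, Akt1 over Foxo1, Insr over Foxo3 and Pik3ca over Irs1 kept this order in all 6 libraries. Foxo1 and Insr, Foxo3 and Pik3r1, and Pik3r1 and Irs2 kept it in 4 of 6 libraries and Irs2 and Pik3ca in 5 of 6. Pik3r1 and Irs2 left this order only in knockout libraries, and the other pairs only in control libraries. In places the means of each group ran in another order, which was not tested. Irs2 averaged 6.82 TPM and Pik3r1 5.98 TPM in knockout livers, against 4.06 TPM for Irs2 and 7.23 TPM for Pik3r1 in control livers. Foxo3 averaged 7.503 TPM in knockout livers, above Pik3r1, and 6.14 TPM in control livers, below it. Leaving Irs2 itself aside, the genes whose log2 CPM followed Irs2 most closely over the 6 libraries were Kdsr (Pearson r = 0.995), which encodes an enzyme of ceramide synthesis, Erbb3 (r = 0.991), a receptor of the epidermal growth factor receptor family, Cd2ap (r = 0.989), Ttc3 (r = 0.985) and Pla2g6 (r = 0.983). These values are a description over 6 points that share the libraries, their depth and the genotypes. Erbb3 had 116, 112 and 80.7 CPM in the knockouts, against 66.7, 56.8 and 76.0 CPM in the controls, with knockout replicate 3 closest to the controls as in Irs2.

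Other genes of the chain did not pass either. Over all tested genes, 1.49% passed in edgeR and 18.5% had an unadjusted p under 0.05. Of 14 tested genes of further adaptors, PI3K subunits, Pdpk1 and Foxo4, 0 passed in either direction in edgeR, 2 had an unadjusted p under 0.05, and DESeq2 called 0. The median log2 fold change of these 14 was 0.09. The smallest p belonged to Crk, an adaptor (log2 fold change of 0.35 ± 0.12, SE, adjusted p = 0.163, edgeR), and to Pik3cd, the leukocyte PI3K catalytic subunit (-0.49 ± 0.22, SE, adjusted p = 0.269, edgeR). Of 23 genes that limit the chain, among them the tyrosine phosphatase gene Ptpn1 and the receptor inhibitors Grb10 and Grb14, 0 passed in edgeR, 2 had an unadjusted p under 0.05, and DESeq2 called 0. Their median was 0.14, with Phlpp2, a phosphatase of AKT (0.77 ± 0.30, SE, adjusted p = 0.212, edgeR), and the ubiquitin ligase gene Cblb (0.54 ± 0.21, SE, adjusted p = 0.222, edgeR) at the smallest p.

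Of 19 genes downstream of AKT in the GSK3 and mTOR branches, 0 passed in edgeR, 0 had an unadjusted p under 0.05, and DESeq2 called 0. Rps6kb1, the S6 kinase of the mTOR branch, had the smallest p (0.24 ± 0.12, SE, adjusted p = 0.313, edgeR), followed by Gsk3b (0.27 ± 0.14, SE, adjusted p = 0.345, edgeR), a kinase that restrains glycogen synthesis until AKT inhibits it. Of 16 genes whose proteins bind or modify FOXO factors, 0 passed in edgeR, 4 had an unadjusted p under 0.05 (3 with positive and 1 with negative fold changes), and DESeq2 called 0. For both lists, the shares over all tested genes were 1.49% passing in edgeR and 18.5% with an unadjusted p under 0.05. Ywhaz, which encodes an adaptor that retains phosphorylated FOXO in the cytoplasm, had the smallest p (0.35 ± 0.12, SE, adjusted p = 0.185, edgeR). The negative one was Ywhab, a gene of the same adaptor family (-0.34 ± 0.14, SE, adjusted p = 0.234, edgeR). Sgk1, a kinase related to AKT, came next to Ywhaz in p (0.39 ± 0.14, SE, adjusted p = 0.189, edgeR).

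Some transcripts of genes known as FOXO targets did pass. FOXO activity was not measured, and the cause of these differences was not tested. Of 26 listed, 7 were higher in knockout livers and 0 lower in edgeR, where 0.772% of all tested genes were called higher; 1 was lower at an unadjusted p under 0.05, and DESeq2 called 8 higher and 0 lower. The median over the 26 was 0.19 on the log2 scale, beside -0.02 over all tested genes. Igfbp1, Pdk4, Ppargc1a, G6pc and Pck1 were already known to be higher in these libraries when the list was written, so their share in it is not independent evidence of its direction. The count was 7 with the length trend removed. It was 2 without knockout replicate 2, knockout replicate 3 or control replicate 2.

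Among these targets, Igfbp1, the secreted binding protein whose promoter is shown above, rose 5.60-fold (adjusted p = 0.0017, edgeR), with 221, 332 and 209 CPM in the knockouts, against 41.9, 48.8 and 45.4 CPM in the controls. Pdk4, a kinase that inhibits pyruvate dehydrogenase, rose 9.12-fold (adjusted p = 0.00822, edgeR), with 50.8, 32.5 and 18.1 CPM in the knockouts, against 3.42, 2.74 and 4.93 CPM in the controls. Knockout replicate 3 was lowest among the knockouts in Pdk4 as in Irs2, and in Igfbp1 it lay close to knockout replicate 1.

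G6pc, the enzyme that releases free glucose, rose 1.88-fold (adjusted p = 0.0206), Pck1, the committed enzyme of gluconeogenesis, 1.69-fold (adjusted p = 0.0413) and Ppargc1a, a coactivator of FOXO1, 2.27-fold (adjusted p = 0.0131, all edgeR). Ccng2, an atypical cyclin gene, rose to 10.1, 18.2 and 14.8 CPM in the knockouts, against 6.17, 5.68 and 5.81 CPM in the controls (log2 fold change of 1.29 ± 0.21, SE, adjusted p = 0.0242, edgeR). Txnip, an inhibitor of glucose uptake and thioredoxin, rose to 236, 220 and 189 CPM in the knockouts, against 81.0, 112 and 122 CPM in the controls (1.03 ± 0.18, SE, adjusted p = 0.0291, edgeR). All knockouts lay above all controls in each of these 5 genes. The calls of Ccng2, G6pc, Ppargc1a, Txnip and Pck1 were lost without knockout replicate 2, knockout replicate 3 or control replicate 2, and those of Txnip and Pck1 also without knockout replicate 1.

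The other 19 targets did not pass. They included Sod2 (log2 fold change of 0.12) and Cat (0.14), antioxidant enzymes, the autophagy genes Map1lc3b (0.19), Gabarapl1 (0.08) and Ulk1 (-0.12), and the cell cycle inhibitor gene Cdkn1b (0.20). The stress genes Sesn1 (-0.29) and Gadd45a (-0.78) had negative values, as did Apoc3 (-0.40). Larger positive values belonged to Bcl6 (0.84), Fst (0.76) and Cdkn1a (0.73), in which the groups overlapped. Mttp had 0.53 (unadjusted p = 0.0112, adjusted p = 0.145, edgeR). In Mttp all knockouts lay above all controls, as in 13.3% of all tested genes.

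**Figure D4:**
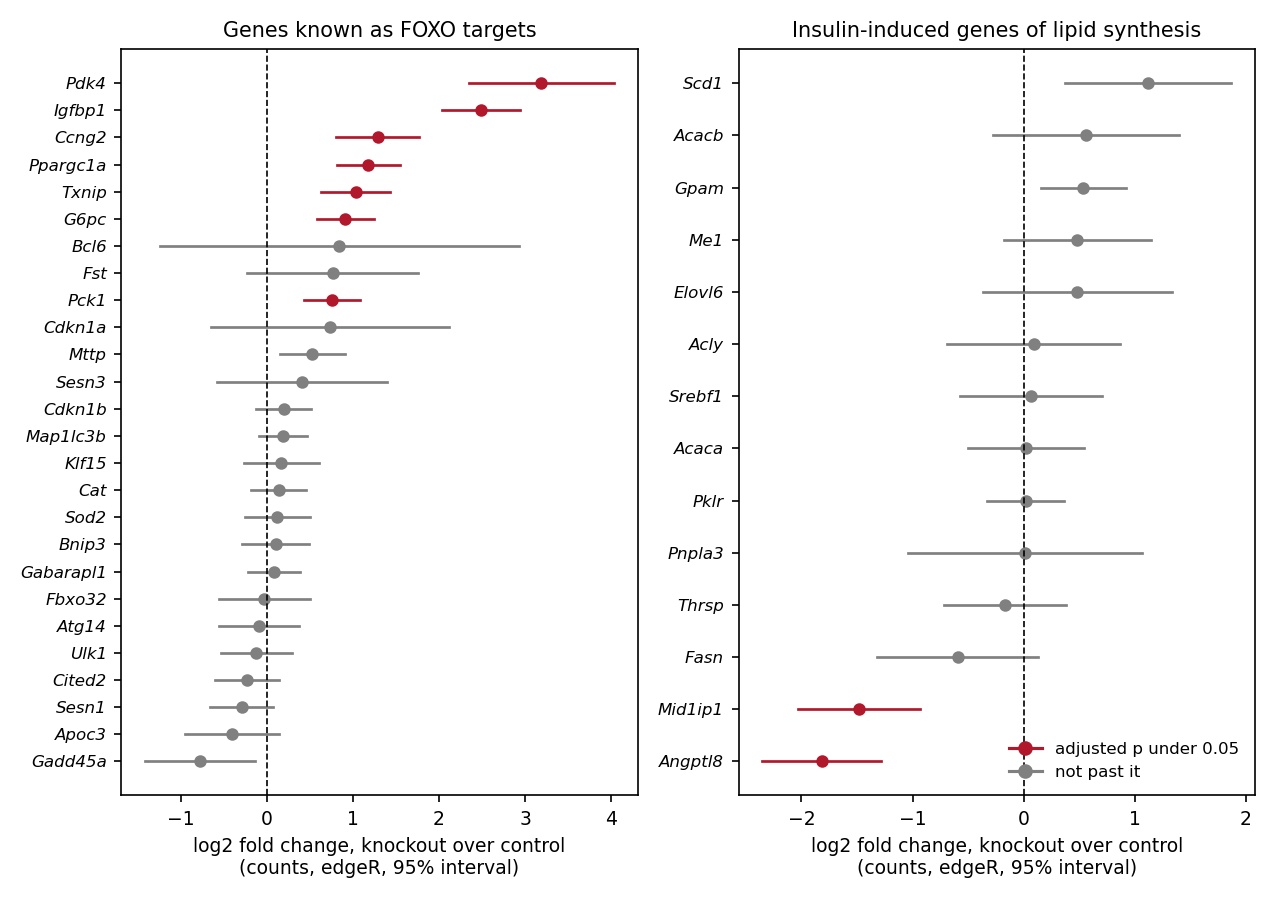
Log2 fold change, knockout over control, with 95% intervals (horizontal axes), from edgeR on counts. The left panel holds 26 genes known as FOXO targets and the right panel 14 tested insulin-induced genes, mostly of lipid synthesis. Red marks an adjusted p under 0.05. On the left 7 genes are red, all above 0, and on the right 2 are red, both below 0.

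A further list, named the lipid synthesis list here, held genes that insulin is known to induce in hepatocytes, mostly for lipid synthesis. It also held Angptl8, which acts on lipoprotein lipase and not in lipid synthesis itself. Of 14 tested, 0 rose and 2 fell in edgeR, where 0.715% of all tested genes were called lower; 2 were higher at an unadjusted p under 0.05, and DESeq2 called 1 higher and 2 lower. Their median log2 fold change was 0.05, and 10 of the 14 were positive. This list too was chosen with earlier results of these data known, so its share of calls is not independent evidence.

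Angptl8, a secreted inhibitor of lipoprotein lipase induced by feeding, fell to 26.8, 13.6 and 19.9 CPM in the knockouts, against 70.3, 83.5 and 58.9 CPM in the controls (-1.82 ± 0.24, SE, adjusted p = 0.0105, edgeR). Mid1ip1, an activator of acetyl-CoA carboxylase, fell to 10.2, 7.89 and 10.7 CPM in the knockouts, against 17.8, 26.6 and 35.6 CPM in the controls (-1.48 ± 0.24, SE, adjusted p = 0.0233, edgeR). In each of these genes all knockouts lay below all controls. Srebf1, a factor known to drive genes of lipid synthesis, had a log2 fold change of 0.07 (95% interval -0.57 to 0.71). The fatty acid synthase gene Fasn had -0.59 (adjusted p = 0.357, edgeR). The desaturase gene Scd1 had 1.12 (unadjusted p = 0.00766, adjusted p = 0.123, edgeR) and Gpam 0.54 (adjusted p = 0.144, edgeR). In Scd1 and Gpam all knockouts lay above all controls. Of the 14 tested, 4 thus did not overlap between the groups, 2 of them higher, where 25.2% of all tested genes did not overlap.

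The number of calls in the lipid synthesis list was 1 without knockout replicate 1, knockout replicate 2 or control replicate 2, 0 without knockout replicate 3, and 5 without control replicate 3. The call of Angptl8 was lost without knockout replicate 3, and that of Mid1ip1 without any of the knockout replicates in turn or without control replicate 2.

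The summed TPM of 8 T and NK cell markers was 3.71 to 6.94 in the knockouts, against 8.59 to 17.8 in the controls. Of the 7 tested, 0 were called in edgeR, 5 had an unadjusted p under 0.05 and DESeq2 called 1. Over all tested genes, 18.5% had an unadjusted p under 0.05. Several of these markers had few counts. Cd3d had 3, 5 and 2 counts in the knockouts, near the counting floor, against 9, 14 and 11 in the controls. Gzma had 6, 7 and 5 counts in the knockouts, against 20, 34 and 15 in the controls. The summed level of 5 B cell markers in the table was 4.43 to 7.35 TPM in the knockouts, against 9.83 to 21.6 TPM in the controls, with 1 of 4 tested markers (Jchain) lower. Of 10 Kupffer cell markers 0 were called in edgeR, 4 were lower at an unadjusted p under 0.05 and DESeq2 called 1, with sums of 458 to 570 TPM in the knockouts and 465 to 846 TPM in the controls. Of 8 endothelial markers 1 (Lyve1) was lower in edgeR. Their sums were 146 to 162 TPM in the knockouts and 168 to 175 TPM in the controls. Clec4g made up most of these sums (adjusted p = 0.522, edgeR). It had 93.8, 93.4 and 104 TPM in the knockouts, against 117, 107 and 104 TPM in the controls. Of the 8, 6 had negative and 2 positive fold changes. Over all tested genes, edgeR called 0.715% lower. DESeq2 called 5.26% of the genes to which it gave an adjusted p. Of 9 hepatocyte markers tested, 0 were called in edgeR, 0 had an unadjusted p under 0.05 and DESeq2 called 0. None of the T, NK, B, Kupffer or endothelial markers in the table was at 0 in all libraries. In bulk liver, fewer cells of a type and less RNA per cell cannot be told apart, and the part of these cells in the levels of the 9 genes was not tested.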

How the data were processed

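Gene-level estimated counts, FPKM and TPM were deposited by the authors; per the submitters' processing notes, HISAT2, Bowtie2, RSEM 1.3.1 and GRCm38 were used. The authors' deposited log2 fold changes, p-values and q-values came from DESeq2, per the file headers. The sources used here give neither trimming nor strand setting. Columns were matched to samples by group and number, where the headers call the controls wild type.

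Estimated counts (4.70% to 5.12% of values not whole) were rounded, filtered with filterByExpr, scaled with TMM factors and tested with edgeR 4.0.16 in R 4.3.3 (quasi-likelihood, genotype only, Benjamini-Hochberg over 12173 genes at 0.05). Standard errors and 95% intervals came from the F statistic. Length trends were lowess fits (span 0.3) of log2 CPM deviation on the effective length implied by counts and FPKM. Libraries of a group differed by more than sampling noise (chi-square of 18.9 or more for each degree of freedom). A count of 0 would allow 3 counts, or 0.155 to 0.201 CPM. Reads carried no stated molecular identifiers, so this floor covers counting error only.

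Ratios were tested by exact permutation on log2 TPM. Genes named were Selenoo, the 9 members, all called members of each pathway list or else its 2 with the smallest p, and the 5 genes most correlated with the member of smallest p; other list members are named as examples chosen after their values were seen. The 9 genes and the lists were chosen with earlier results of these data known. Alternatives were other scalings (RLE, upper quartile) and filters (none, or 1 CPM in 3 libraries), DESeq2 1.42.0, limma 3.58.1 (voom, or log2 of FPKM + 1, FPKM + 0.1 or TPM + 1), a replicate block, length trends and leaving out each library. Some genes of the lists are not reported here.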

Additional observations from a re-analysis of the deposited data

How the results depend on the processing

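Over all genes, the 181 calls became 330 without the low-count filter, 634 with DESeq2, 110 on log2(FPKM + 1), 79 on log2(TPM + 1), 87 with the replicate block, 278 with the length trend removed, and 43 to 668 when each library was left out; the cause was not tested. Of the 9 genes, 0 were called under every alternative other than DESeq2, which called 1 (Irs2). The adjusted p of Irs2 ran from 0.0448 with DESeq2 to 0.363 without knockout replicate 2. Among 162 refits of the 9 genes, 3 turned the sign: Insr with the length trend removed (-0.0033) and, on leaving out each library, Insr (-0.052 to 0.228) and Akt2 (-0.053 to 0.263). The log2 ratio of Foxo1 to Foxo3 ran from -0.10 to 0.19. The 7 calls among FOXO targets became 4 on log2(FPKM + 1), 3 on log2(TPM + 1), 3 with the replicate block and 2 to 8 on leaving out each library. The 2 in the lipid synthesis list became 1 on log2(FPKM + 1), 1 on log2(TPM + 1) and 0 to 5 on leaving out each library.

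Same-numbered libraries did not deviate together (r of -0.16, -0.079 and -0.076 for numbers 1, 2 and 3), so the numbers are not treated as pairs; with the replicate block, 4 of the 9 called genes of the FOXO target and lipid synthesis lists (G6pc, Ccng2, Txnip and Pck1) had an adjusted p above 0.05, and none of the 9 genes was called. With 3 libraries in each group, intervals of the 9 genes are wide: that of Irs1 spans -0.19 to 0.84 on the log2 scale.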
